A study of Mus musculus with 10 samples.

Results

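The genes described here are 32 markers of the cells that surround and support heart muscle cells: 21 of fibroblasts and 11 of mural cells, the pericytes and smooth muscle cells that wrap blood vessels. They were chosen by gene name from the 55858 genes of the deposited table, and all 32 names were found. Whole hearts of 10 mice were sequenced, 5 per group, at postnatal day 10. Every animal was labelled MCM; Chmp4bF/F, so the controls carried the same alleles as the other group. The cKO group was given tamoxifen under the skin at 0.1 mg/g on 2 consecutive days from the day of birth, and the control group was given corn oil. The labels do not spell out MCM or name the promoter that drives it. No tamoxifen-treated animals without the floxed alleles were analysed here, so tamoxifen itself and deletion of Chmp4b, a gene of the ESCRT-III membrane-cutting complex, cannot be told apart.

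Cardiac fibroblasts arise largely from the epicardium, lay down the collagen network of the heart and are recognised by the receptor gene Pdgfra and the transcription factor gene Tcf21. Fibroblasts differ by site: those of the vessel sheath and the interstitium use partly separate sets of secreted proteins, and Pi16, Clec3b and Scara5 are known from other tissues as genes of sheath fibroblasts. Pericytes sit on capillaries and depend on the receptor PDGFRB, whereas smooth muscle cells of larger vessels carry a contractile apparatus whose genes, such as Myh11, Tagln and Cnn1, are driven by serum response factor and myocardin.

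Values are TPM, the share of each transcript in its library after allowing for gene length, summing to 1000000. How many reads lie behind them is unknown. Mitochondrially encoded genes held from 35.5% to 41.5% of the TPM of cKO hearts and from 50.0% to 59.4% of that of controls. In the deposited values the median log2 difference of the 13282 tested genes was 0.63, so levels were divided by a factor per library (1.196 to 1.38 in cKO and 0.697 to 0.843 in control libraries) that sets the median gene equal. These are called scaled TPM, and differences from them are relative to the median gene (median 0.01 over all tested genes). A gene was called where limma's adjusted p was under 0.05. The targeted gene, Chmp4b, averaged 29.5 ± 1.38 scaled TPM with tamoxifen and 60.8 ± 6.51 without it (n = 5 each, SD; two-sided exact permutation test, p = 0.00794, the smallest this design gives), with no overlap. As deposited it had 38.2 ± 1.42 and 47.4 ± 8.61 TPM (SD, n = 5, exact permutation p = 0.0476), with overlap, and the exact permutation p was between 0.0635 and 0.0952 without any 1 of the libraries other than control replicate 4. Xist, the RNA of the inactive X chromosome, was above 1 TPM in 3 cKO libraries (replicates 1, 5 and 7) and in no control library. Ddx3y, a Y chromosome gene, was 0.05 to 0.08 TPM in these 3 libraries and 16.69 to 32.85 TPM in all others. The labels do not give sex. By these genes, sex was unbalanced between the groups and partly confounded with treatment. Fits without the 3 libraries with Xist are given for the members and for counts over all genes, not for single genes of other lists. They hold only cKO replicates 3 and 6 and the 5 controls, so a call can be lost through fewer samples alone.

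Other cell types moved as well. Macrophage markers were called higher in 15 of 15 tested genes relative to the median gene (summed scaled TPM 451 to 641 in cKO and 135 to 158 in control hearts). Endothelial markers were called lower in 14 of 15 (summed 458 to 591 in cKO and 777 to 829 in control hearts) and cardiomyocyte markers in 13 of 15 (summed 27552 to 35291 in cKO and 53358 to 56309 in control hearts). The sums follow the most abundant genes of each list. No marker in these 3 lists was at 0 in all libraries. As deposited, endothelial markers were called higher in 2 and lower in 1 of 15, and cardiomyocyte markers higher in 3 and lower in 5 of 15. Of all 13282 tested genes, 20.8% were called in each direction relative to the median gene. As deposited, 76.5% of them were called higher and 3.46% lower. Of 10 lymphocyte markers, 6 were under 1 TPM in every library, the T cell gene Cd3e among them. In whole-heart RNA, fewer cells of a type and less RNA per cell cannot be told apart, and the part that these lists play in the results for fibroblast and mural genes was not tested.

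Fibroblast markers moved in both directions. The lineage genes Pdgfra and Tcf21 and the proteoglycan genes Dcn and Lum were higher in cKO hearts, by 1.47-fold to 1.87-fold in scaled TPM. Clec3b, Pi16 and Scara5 were lower, to 0.153, 0.340 and 0.332 of the control mean. Of the 21 fibroblast members, 19 passed the filter on low values. Relative to the median gene, 7 of these were called higher, 10 lower and 2 were not called, against 20.8% of all 13282 tested genes called higher and 20.8% called lower. Their median difference was -0.23, with a range from -2.49 to 0.86 on the log2 scale. As deposited, 12 were called higher, 3 lower and 4 were not called (median 0.51), against 76.5% and 3.46% of all tested genes. Values of the groups did not overlap for 5 members that were higher and 6 that were lower in cKO after scaling, where 15.8% and 15.5% of all tested genes were so.

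**Figure D1:**
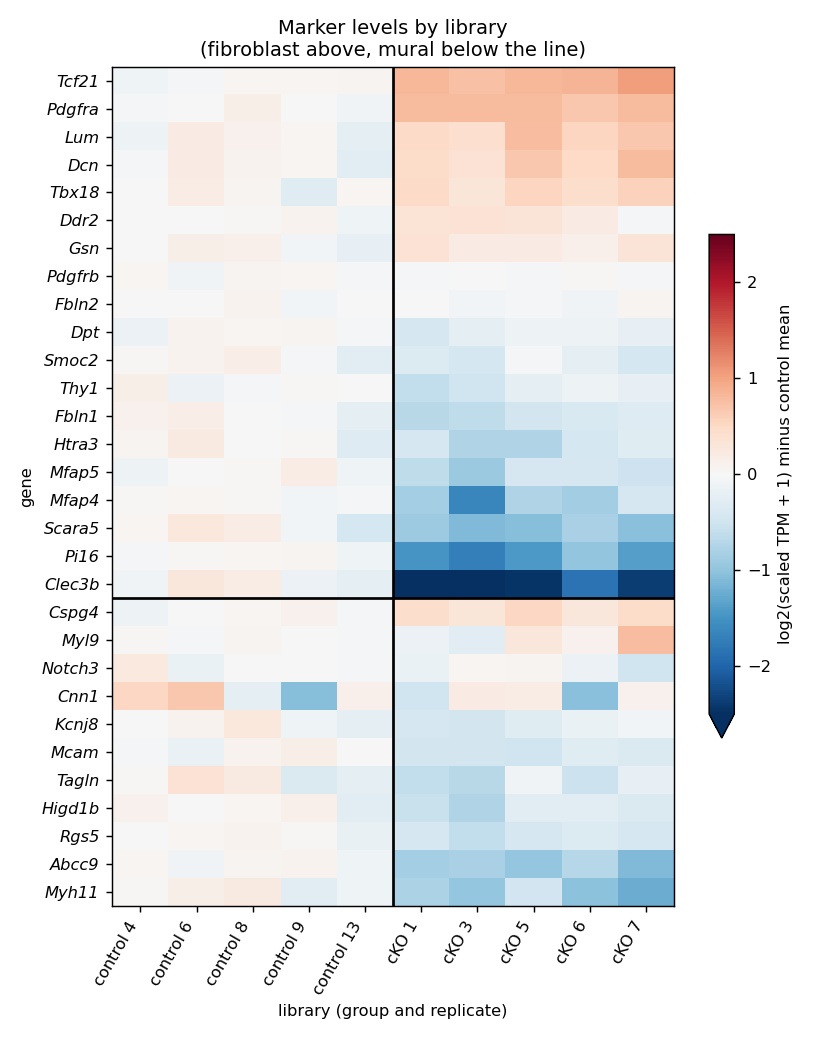
Levels of the 30 tested markers in every library, as log2(scaled TPM + 1) minus the control mean of the gene (red higher, blue lower, darkest blue includes values under -2.5). Columns are 5 control and 5 cKO hearts, rows are fibroblast genes above and mural genes below the black line. Tcf21 and Pdgfra are red and Clec3b and Pi16 blue in all 5 cKO hearts, and Cnn1 varies within both groups.

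Pdgfra encodes the receptor for PDGF-A that marks cardiac fibroblasts (ENSMUSG00000029231.16, chr5:75152292-75198215, plus strand in GRCm38). In the order of cKO replicates 1, 3, 5, 6 and 7 its scaled TPM was 15.8, 15.8, 15.8, 14.6 and 15.8, and in the order of control replicates 4, 6, 8, 9 and 13, which all later lists follow, 8.42, 8.84, 9.74, 8.70 and 8.17. The 5 cKO hearts all stood above the highest control heart. Its difference was 0.76 ± 0.06 (SE) in log2 scaled TPM (limma adjusted p = 3.07e-06) and 1.44 as deposited. Tcf21, a helix-loop-helix factor that epicardial cells need to become fibroblasts (ENSMUSG00000045680.9, chr10:22817281-22820174, minus strand), had 26.3, 24.6, 26.4, 26.8 and 30.8 in cKO and 13.2, 13.9, 14.9, 14.9 and 15.1 in control hearts. It too was higher in every cKO heart, with the largest value in cKO replicate 7. The log2 difference of 0.86 ± 0.07 (limma adjusted p = 3.05e-06) was the largest rise among the 30 tested markers, and as deposited it was 1.56. Tbx18, a T-box factor of epicardium and of mural cells, was low in all hearts, at 2.98 ± 0.287 in cKO hearts against 1.88 ± 0.341 in controls (SD, n = 5), and was called higher (log2 difference 0.47, limma adjusted p = 0.00349). Without the 3 libraries with Xist its difference was 0.37 and it was no longer called (limma adjusted p = 0.108).

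The sequences just before the RefSeq starts of both lineage genes are shown because both genes were called higher, 5′ to 3′ on the gene's strand, from 250 to 51 bases before the start (GRCm38.p6, chr5:75152001-75152200, plus strand for Pdgfra and chr10:22820194-22820393, minus strand for Tcf21).
Pdgfra: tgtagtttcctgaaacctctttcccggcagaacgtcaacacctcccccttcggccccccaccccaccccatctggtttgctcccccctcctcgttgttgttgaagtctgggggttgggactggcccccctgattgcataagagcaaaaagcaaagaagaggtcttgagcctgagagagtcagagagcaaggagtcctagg
Tcf21: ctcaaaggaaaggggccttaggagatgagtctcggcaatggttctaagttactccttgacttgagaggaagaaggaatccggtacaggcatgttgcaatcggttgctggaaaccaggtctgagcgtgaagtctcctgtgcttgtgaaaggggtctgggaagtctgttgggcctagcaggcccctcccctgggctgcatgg
Neither window held any of 5 motifs searched on both strands: the CArG box bound by serum response factor, the E-box CAGCTG, the Notch effector motif GTGGGAA, the GC box GGGCGG, and the TATA box as TATAAA. The motifs were not tested for binding. GC content was 56.5% and 54.5%, where the median of all 32851 windows in the RefSeq table was 51.5%. Windows were found for 19 of the 32 members. Among these, CAGCTG stood before Dpt, Gsn and Htra3 (10.3% of all windows), GTGGGAA before Gsn (4.35%) and TATAAA before Ddr2 (9.14%).

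Pdgfrb, the PDGF-B receptor of mural cells and many fibroblasts, stood level in the 2 groups after scaling. It had 21.4, 22.2, 21.3, 22.5 and 21.5 scaled TPM in cKO and 22.8, 20.7, 23.3, 22.8 and 21.3 in control hearts, and the groups overlapped. The log2 difference was -0.02 ± 0.05 (limma adjusted p = 0.755), whereas as deposited Pdgfrb was called higher, by 0.69 ± 0.09 (limma adjusted p = 1.57e-05). Fbln2, a fibulin of elastic fibres and basement membranes, was similarly placed, at 36.8 ± 1.72 in cKO hearts against 37.5 ± 1.42 in controls (SD, n = 5) (log2 difference -0.02, limma adjusted p = 0.745). It was called higher as deposited, by 0.70. Ddr2, a collagen receptor kinase, and Gsn, which encodes the actin-severing protein gelsolin and is used by many cell types, were both called higher. Ddr2 had 7.58 ± 0.950 in cKO hearts against 6.23 ± 0.363 in controls (SD, n = 5), with overlap (log2 difference 0.24, limma adjusted p = 0.047). Gsn had 81.3 ± 5.60 in cKO hearts against 68.7 ± 6.96 in controls (SD, n = 5), also with overlap (0.24, limma adjusted p = 0.0284). Ddr2 was not called without any 1 of 9 libraries, all except cKO replicate 7 (log2 difference 0.21 to 0.26 in these 9, limma adjusted p up to 0.107). Gsn was not called without cKO replicate 1 or 7 or control replicate 9 or 13 (log2 difference 0.19 to 0.28 over all 10, limma adjusted p up to 0.0668).

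The collagen-binding proteoglycans decorin and lumican are among the most abundant fibroblast products, and their genes lie next to each other on chromosome 10 (Dcn from 97479609 to 97518143 and Lum from 97565128 to 97572703, both on the plus strand in GRCm38). Dcn had 411, 387, 483, 423 and 522 scaled TPM in cKO and 293, 346, 318, 309 and 246 in control hearts. Lum had 104, 100.1, 128, 108 and 119 in cKO hearts against 68.3, 85.7, 80.8, 77.6 and 62.6 in controls. For both genes the lowest cKO heart was replicate 3, still above the highest control heart, replicate 6. The log2 differences were 0.56 ± 0.11 for Dcn and 0.58 ± 0.10 for Lum (limma adjusted p = 0.00127 and 6.02e-04), and 1.30 and 1.31 as deposited. Dpt encodes dermatopontin, a partner of decorin, and had 75.05, 84.1, 91.8, 91.9 and 87.02 in cKO and 90.5, 107, 104, 105 and 96.4 in control hearts. It was called slightly lower after scaling (-0.23, limma adjusted p = 0.0265) but higher as deposited (0.51), and the groups overlapped after scaling. Without cKO replicate 1 or 3 or control replicate 6, 8 or 9 it was not called (log2 difference -0.26 to -0.18 over all 10, limma adjusted p up to 0.0615).

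**Figure D2:**
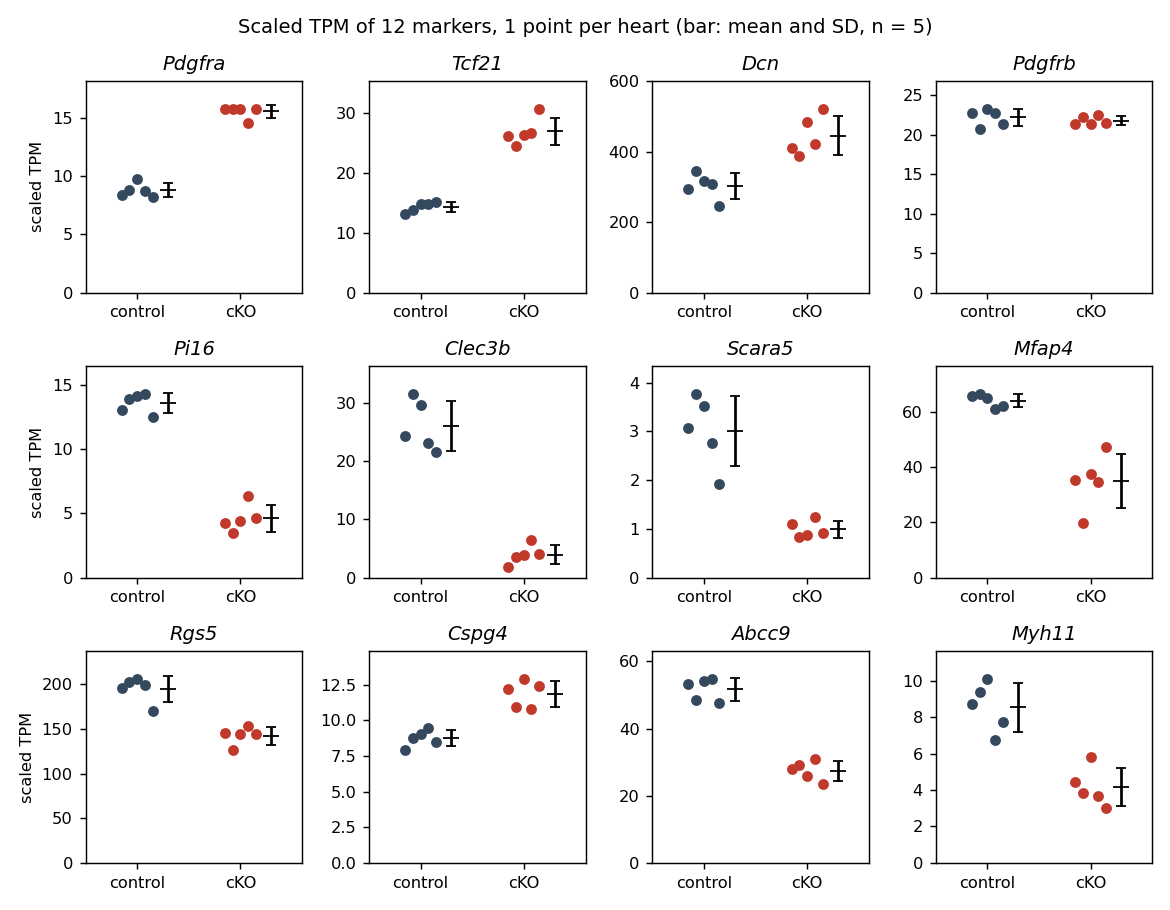
Scaled TPM of 12 markers in each heart, with the axis starting at 0 for every gene. Blue-grey points are 5 control and red points 5 cKO hearts, and the bar at the right of each group is the mean with its SD. Points of the 2 groups are separate for each gene shown except Pdgfrb, where they are mixed.

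Clec3b, which encodes tetranectin, a secreted plasminogen-binding lectin (ENSMUSG00000025784.6, chr9:123150946-123157432, plus strand), showed the largest fall among the tested markers. Its scaled TPM was 1.93, 3.51, 3.87, 6.39 and 4.13 in cKO and 24.2, 31.5, 29.5, 23.1 and 21.5 in control hearts. The highest cKO heart, replicate 6, was far under the lowest control heart, replicate 13. The log2 difference was -2.49 ± 0.20 after scaling (limma adjusted p = 3.19e-06) and -1.84 as deposited. Pi16, a secreted peptidase inhibitor gene of vessel-sheath fibroblasts (ENSMUSG00000024011.18, chr17:29317680-29330593, plus strand), had 4.26, 3.45, 4.40, 6.33 and 4.63 in cKO and 13.04, 13.9, 14.1, 14.3 and 12.5 in control hearts. Again cKO replicate 6 was the highest of its group. The difference was -1.39 ± 0.12 (limma adjusted p = 3.30e-06) and -0.74 as deposited (limma adjusted p = 1.57e-04). Scara5, a scavenger receptor that takes up ferritin, was near 1 scaled TPM in cKO hearts, with 1.10, 0.831, 0.881, 1.25 and 0.918, against 3.06, 3.77, 3.52, 2.76 and 1.92 in controls. At -0.99 ± 0.14 (limma adjusted p = 1.25e-04) and -0.53 as deposited (limma adjusted p = 0.00682), it was called lower on both scales. These 3 genes were the only members called lower as deposited. Without the 3 libraries with Xist, Scara5 was still called lower after scaling but not as deposited (-0.53, limma adjusted p = 0.0536).

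Mfap4, Mfap5 and Fbln1 were called lower after scaling and not as deposited. Mfap4, a microfibril-associated glycoprotein gene of elastic vessels, had 35.3, 19.97, 37.4, 34.7 and 47.3 scaled TPM in cKO and 65.8, 66.5, 65.1, 60.9 and 61.99 in control hearts. Control hearts lay close together, while cKO hearts ranged from replicate 3 to replicate 7, all under the lowest control. Its difference was -0.91 ± 0.17 (limma adjusted p = 0.00133) and -0.18 as deposited (limma adjusted p = 0.361). Without the 3 libraries with Xist it was called lower as deposited too (-0.57, limma adjusted p = 0.0169). Mfap5, which binds fibrillin, had 37.8, 30.6, 43.6, 43.9 and 40.9 in cKO hearts against 53.7, 59.1, 60.3, 67.6 and 54.9 in controls, without overlap. It stood at -0.58 ± 0.10 (limma adjusted p = 7.56e-04) and at 0.14 as deposited. Fbln1, another fibulin, had 8.81, 9.27, 10.5, 11.2 and 11.7 in cKO and 16.2, 16.7, 14.9, 14.4 and 12.5 in control hearts, also without overlap (log2 difference -0.49 ± 0.10, limma adjusted p = 0.00165, and 0.19 as deposited). The exons of Mfap4 overlap those of Mapk7 on the other strand, and the sources used here do not give whether reads were counted by strand.

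Htra3, a secreted serine protease gene, had 10.95, 8.47, 8.58, 10.8 and 11.97 scaled TPM in cKO and 15.7, 17.8, 14.96, 15.4 and 11.9 in control hearts. The highest cKO heart only just passed the lowest control heart, and the gene was called lower (log2 difference -0.53 ± 0.12, limma adjusted p = 0.00356; 0.15 as deposited, limma adjusted p = 0.333). Thy1, a surface protein shared by fibroblasts, neurons and T cells, had 9.53, 10.4, 12.8, 13.7 and 12.9 in cKO hearts against 16.9, 13.5, 14.7, 15.4 and 15.1 in controls. Smoc2, a calcium-binding matrix protein gene, had 16.2, 14.96, 20.4, 17.4 and 15.1 in cKO hearts against 21.2, 22.2, 23.2, 20.4 and 17.1 in controls. Both overlapped between groups and were called lower after scaling (-0.33 and -0.30, limma adjusted p = 0.021 and 0.0336) but higher as deposited (0.36 and 0.41). Thy1 was not called without cKO replicate 3 or control replicate 4 (limma adjusted p up to 0.0525, log2 difference -0.38 to -0.26 over all 10). Smoc2 was called without cKO replicate 5 or 6 or control replicate 13 and not without any of the other 7 libraries (limma adjusted p up to 0.0813, log2 difference -0.36 to -0.26 over all 10). Efemp1, a fibulin-like gene, and Penk, which encodes the opioid precursor proenkephalin, were under 1 TPM in every library and were not tested. Efemp1 had 0, 0.247, 0.213, 0.112 and 0.126 scaled TPM in cKO and 0.816, 0.438, 0.757, 0.671 and 0.207 in control hearts, and is listed at 0 in cKO replicate 1. Penk had 0.128, 0.153, 0.186, 0.0851 and 0.143 in cKO hearts against 0.579, 0.269, 0.174, 0.0634 and 0.125 in controls. Both overlapped between groups.

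Mural cell markers were mostly lower relative to the median gene, by less than the most affected fibroblast genes. Myh11 and Abcc9 stood at 0.488 and 0.531 of the control mean in scaled TPM, and Cspg4 at 1.36 times the control mean. All 11 mural members passed the filter. Of these, 1 was called higher, 6 lower and 4 were not called (median log2 difference -0.41), beside the 20.8% of all tested genes called in each direction. As deposited, 6 were called higher, 0 lower by limma (at an unadjusted p under 0.05, 0) and 5 were not called (median 0.31), where 76.5% of all tested genes were called higher and 3.46% lower. Values did not overlap for 1 of the 11 members that was higher and 5 that were lower after scaling, where 15.8% and 15.5% of all tested genes were so. Without the 3 libraries with Xist, the calls of Cspg4, Tbx18, Ddr2, Gsn, Dpt, Thy1 and Smoc2 were lost, which left 6 mural members lower, and 4 fibroblast members higher and 7 lower, all relative to the median gene. In the deposited values the higher calls of Rgs5, Mcam, Kcnj8 and Smoc2 were lost (limma adjusted p = 0.268, 0.0754, 0.152 and 0.135). Only cKO replicates 3 and 6 remained beside the 5 controls in these fits. Of all tested genes, 1642 were then called higher and 1819 lower relative to the median gene, against 2763 and 2766 with all libraries. As deposited, 8942 were called higher and 308 lower, against 10160 and 460 with all libraries. In the order Cspg4, Tbx18, Ddr2, Gsn, Dpt, Thy1 and Smoc2, log2 differences were 0.29, 0.37, 0.29, 0.16, -0.19, -0.31 and -0.34 after scaling. With all libraries they were 0.40, 0.47, 0.24, 0.24, -0.23, -0.33 and -0.30.

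**Figure D3:**
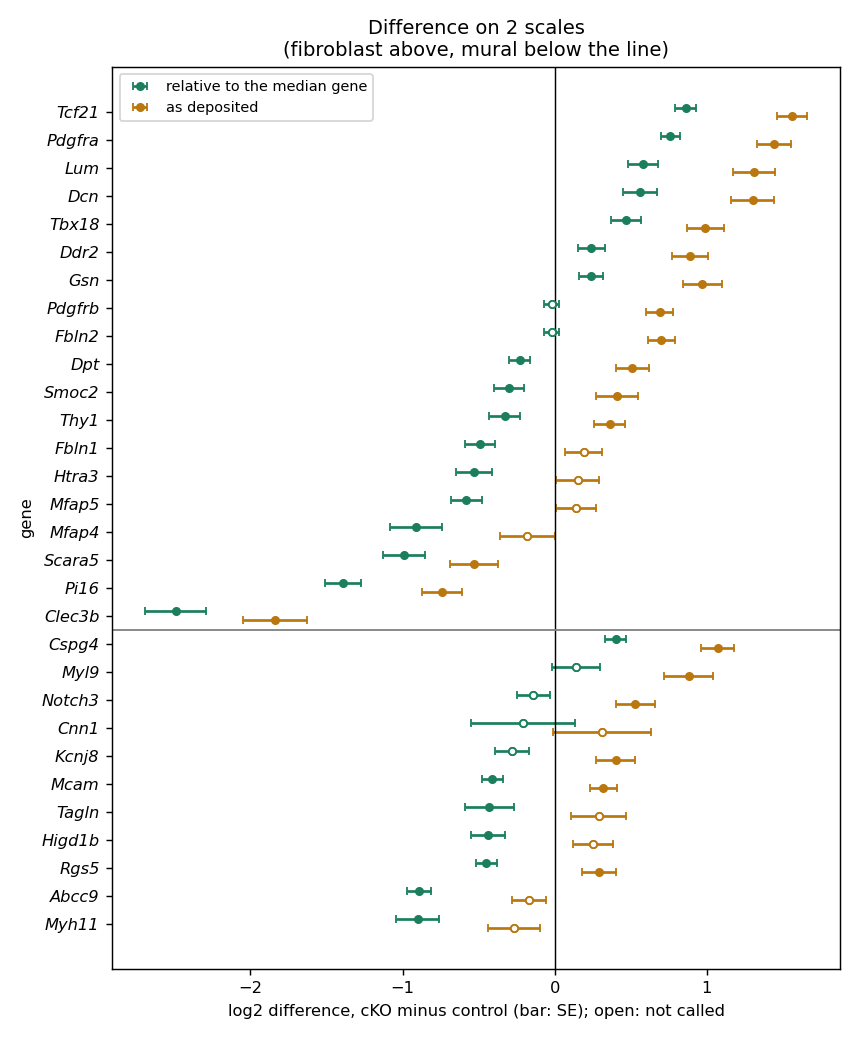
Log2 difference between cKO and control hearts for the 30 tested markers, relative to the median gene (green) and as deposited (ochre). Bars are the SE of the limma fit, open points were not called at an adjusted p of 0.05, and fibroblast genes are above the grey line. All genes lie further right as deposited, and 11 genes are called in the same direction on both scales.

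Among pericyte genes, Rgs5, a regulator of G protein signalling and a classical pericyte marker, had 145, 126, 144, 153 and 144 scaled TPM in cKO and 196, 202, 206, 199 and 169.7 in control hearts. The groups did not overlap, with cKO replicate 3 and control replicate 13 the lowest of their groups. The log2 difference was -0.45 ± 0.07 (limma adjusted p = 3.80e-04), but as deposited Rgs5 was called higher, by 0.29 (limma adjusted p = 0.0266). Higd1b, a mitochondrial protein gene of pericytes, had 11.8, 10.1, 14.6, 14.6 and 13.6 in cKO hearts against 19.1, 17.8, 18.3, 19.5 and 14.6 in controls. The lowest control heart, replicate 13, lay above the highest cKO heart by less than the rounding. It differed by -0.44 ± 0.11 (limma adjusted p = 0.00691), and by 0.25 as deposited without a call. Mcam, an adhesion molecule of mural and endothelial cells, had 43.6, 43.6, 42.3, 48.7 and 46.6 in cKO hearts against 57.9, 53.02, 63.9, 66.3 and 59.5 in controls, again without overlap. Its difference was -0.41 ± 0.07 (limma adjusted p = 6.84e-04), and it was called higher as deposited (0.32). Endothelial markers, with which Mcam is shared, had a median difference of -0.64 relative to the median gene. Cspg4 encodes NG2, a proteoglycan of pericytes and other mural cells, and was the 1 mural member called higher on both scales. It had 12.2, 10.96, 12.9, 10.8 and 12.4 in cKO and 7.93, 8.79, 9.02, 9.48 and 8.50 in control hearts, and every cKO heart was above every control heart. The difference was 0.40 ± 0.07 (limma adjusted p = 9.75e-04) and 1.07 as deposited. Without the 3 libraries with Xist it was 0.29 after scaling and not called (limma adjusted p = 0.0533). Notch3, the Notch receptor of vascular smooth muscle cells, had a scaled TPM of 8.66 ± 1.44 in cKO hearts against 9.57 ± 1.12 in controls (SD, n = 5) and was not called (-0.14, limma adjusted p = 0.368), while as deposited it was called higher (0.53).

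Abcc9 and Kcnj8 encode the sulfonylurea receptor and the pore of one potassium channel gated by ATP, and lie side by side on chromosome 6 (Kcnj8 from 142564837 to 142571614 and Abcc9 from 142587862 to 142702315, both on the minus strand in GRCm38). Pericytes use the pair, and Abcc9 is also used by heart muscle cells, whose markers were called lower in 13 of 15 genes. Abcc9 had 28.01, 29.1, 25.8, 31.04 and 23.4 scaled TPM in cKO and 53.3, 48.5, 54.1, 54.8 and 47.7 in control hearts. All 5 cKO hearts were under the lowest control heart, and the difference was -0.89 ± 0.08 (limma adjusted p = 5.73e-06; -0.17 as deposited, limma adjusted p = 0.157). Kcnj8, at 11.3 ± 1.44 in cKO hearts against 14.03 ± 2.03 in controls (SD, n = 5), was not called (-0.28 ± 0.11, limma adjusted p = 0.0544). It was called lower without cKO replicate 7 or control replicate 13 (limma adjusted p = 0.0264 and 0.0291, log2 difference -0.34 to -0.21 over all 10), and higher as deposited (0.40).

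Of the smooth muscle contractile members, Myh11 and Tagln were called lower relative to the median gene, and Cnn1 and Myl9 were not called. Whether these genes differ from each other was not tested. Myh11, smooth muscle myosin heavy chain and the most specific of them (ENSMUSG00000018830.11, chr16:14194535-14291372, minus strand), had 4.46, 3.86, 5.81, 3.67 and 3.03 scaled TPM in cKO and 8.70, 9.40, 10.1, 6.75 and 7.72 in control hearts. The highest cKO heart, replicate 5, was under the lowest control heart, replicate 9. Its difference was -0.90 ± 0.14 (limma adjusted p = 3.98e-04) and -0.27 as deposited (limma adjusted p = 0.174). Tagln, the actin-binding protein SM22, had 21.9, 20.6, 32.02, 23.1 and 29.2 in cKO hearts against 34.96, 43.8, 39.9, 26.2 and 28.5 in controls, with overlap. It was called lower (-0.43 ± 0.16, limma adjusted p = 0.0475), and not without cKO replicate 1, 3 or 6 or control replicate 4, 6 or 8 (limma adjusted p up to 0.107, log2 difference -0.52 to -0.34 over all 10). Its exons overlap those of Pcsk7 on the other strand. Cnn1, calponin, was low and the most variable member in each group among those tested. It averaged 2.47 ± 1.14 in cKO hearts against 3.14 ± 1.70 in controls (SD, n = 5), ranged from 0.846 to 3.38 in cKO and from 0.818 to 5.05 in control hearts, and was not called on either scale. Myl9, a myosin regulatory light chain gene that many non-muscle cells also use, had 124, 112, 167, 147 and 233 in cKO and 139, 133, 144, 137 and 132 in control hearts. Control hearts were nearly equal (coefficient of variation 3.53%), while cKO hearts spread widely (30.3%) with replicate 7 highest. Myl9 was not called after scaling (0.14 ± 0.16, limma adjusted p = 0.515, and -0.01 without cKO replicate 7) and was called higher as deposited (0.88).

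The windows before the RefSeq starts of Myl9 and Abcc9 are shown because Myl9 was the 1 of 19 members whose window held a CArG box, the binding sequence of serum response factor, and Abcc9 had the largest mural fall among members with a window. They run 5′ to 3′ from 250 to 51 bases before the start (GRCm38.p6, chr2:156775214-156775413, plus strand for Myl9 and chr6:142702325-142702524, minus strand for Abcc9), and capitals mark the CArG box and GGGCGG or its reverse complement.
Myl9: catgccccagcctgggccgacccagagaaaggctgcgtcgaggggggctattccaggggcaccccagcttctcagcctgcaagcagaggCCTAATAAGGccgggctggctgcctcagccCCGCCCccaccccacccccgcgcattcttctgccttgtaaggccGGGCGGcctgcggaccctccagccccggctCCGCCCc
Abcc9: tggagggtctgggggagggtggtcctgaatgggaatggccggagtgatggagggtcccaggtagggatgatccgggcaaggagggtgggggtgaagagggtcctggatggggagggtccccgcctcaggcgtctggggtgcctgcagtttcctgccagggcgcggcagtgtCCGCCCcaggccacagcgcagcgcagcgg
The CArG box of Myl9 spans positions -161 to -152 from the start, and 1.16% of all 32851 windows held one. GGGCGG, on either strand, stood before 6 of the 19 members with a window (Abcc9, Cspg4, Gsn, Mcam, Myl9 and Notch3) and in 24.6% of all windows. In Myl9 it lies at -131, -87 and -57 and in Abcc9 at -79, with no overlap between motifs. Myl9 was not called and Abcc9 was called lower relative to the median gene.

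Ratios of a pair of members within each heart do not depend on how libraries are scaled. The pairs were chosen after their values were seen, so they are given without a test. Clec3b over Dcn was 0.00470, 0.00907, 0.00802, 0.0151 and 0.00791 in cKO and 0.0829, 0.0910, 0.0927, 0.0749 and 0.0877 in control hearts, 9.58 times higher in controls on average. Pi16 over Pdgfra was 0.269, 0.218, 0.279, 0.434 and 0.293 in cKO and 1.55, 1.57, 1.45, 1.65 and 1.53 in control hearts. Both ratios were lower in every cKO heart than in any control heart, with cKO replicate 6 nearest to the controls. Scara5 over Pdgfra was 0.0644 ± 0.0136 in cKO and 0.341 ± 0.0705 in controls, and Mfap4 over Dcn was 0.0775 ± 0.0153 and 0.214 ± 0.0246 (SD, n = 5). Against Pdgfrb, the receptor shared by both lineages, Pdgfra was 0.396 ± 0.0252 in control and 0.716 ± 0.0391 in cKO hearts, and Cspg4 0.395 ± 0.0301 and 0.546 ± 0.0562 (SD, n = 5). Rgs5 over Pdgfrb was 6.80, 5.69, 6.77, 6.78 and 6.70 in cKO and 8.61, 9.78, 8.84, 8.73 and 7.97 in control hearts. For the channel pair, Abcc9 over Kcnj8 was 1.76 to 2.97 in cKO and 3.18 to 4.28 in control hearts. Myh11 over Myl9 was 0.0286 ± 0.00980 in cKO hearts against 0.0622 ± 0.00895 in controls (SD, n = 5). None of these 9 ratios overlapped between the groups. For Clec3b, Pi16, Scara5 and Mfap4 this followed from the levels above, as each was lower and its partner higher without overlap. How many other pairs of genes are separate was not counted.

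**Figure D4:**
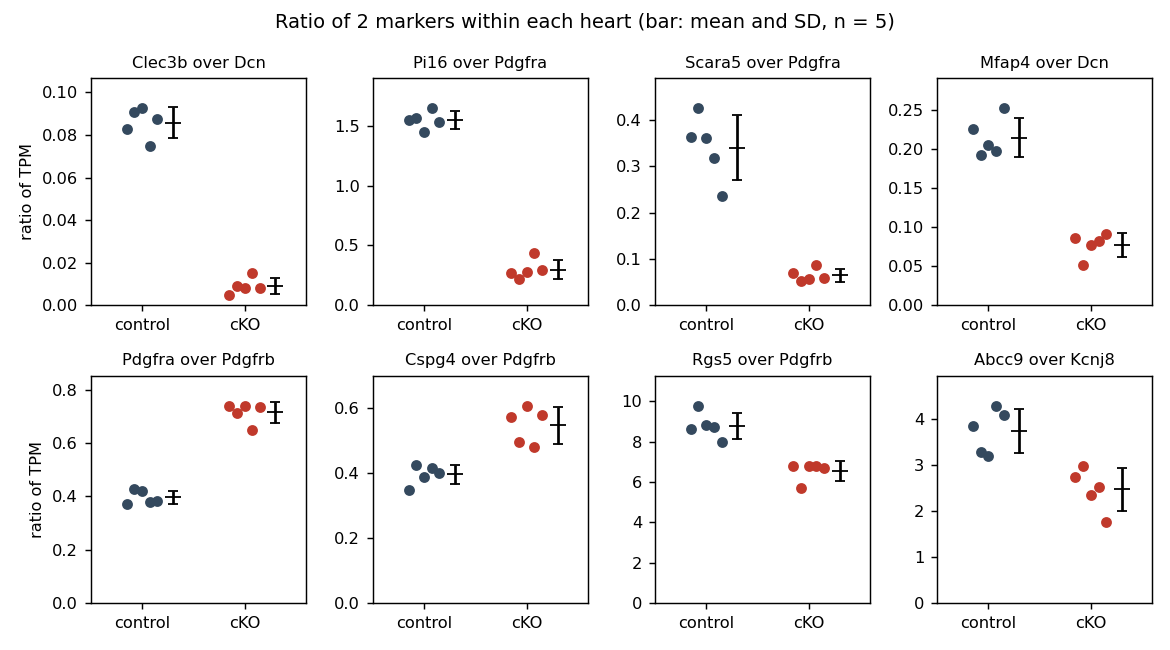
Ratio of the TPM of a pair of markers within each heart for 8 of the 9 pairs, with axes starting at 0. Blue-grey points are 5 control and red points 5 cKO hearts, and bars are means with SD. Ratios of Clec3b, Pi16, Scara5, Mfap4, Rgs5 and Abcc9 to their partners are lower, and those of Pdgfra and Cspg4 to Pdgfrb higher, in all 5 cKO hearts.

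The fibroblast members were set beside 2 other lists of fibroblast genes that share no member with them. Counts in these and the following lists stand against 20.8% of all tested genes called in each direction after scaling, and 76.5% called higher and 3.46% lower as deposited. The further fibroblast genes include collagens and collagen-processing proteins. Of 21 tested, 13 were called higher, 1 lower and 7 were not called (median 0.54). As deposited, 19 were called higher and the other 2 were not called. By adjusted p the first were Pcolce, which speeds procollagen cleavage (0.68), and the collagen genes Col5a1 (0.78), Col1a1 (0.66) and Col15a1 (0.62), with limma adjusted p from 1.35e-05 to 1.48e-04. The 1 gene called lower was Cd248, endosialin (-0.60, limma adjusted p = 7.30e-04), named after its value was seen. Every tested collagen gene of this list was called higher. The 7 not called were Ogn, Medag, Fbn1, Dpep1, Fmod, Islr and Angptl1, also named after their values were seen. Of 17 tested genes linked to fibroblast activation, 12 were called higher and the other 5 were not called (median 0.77; 17 higher as deposited). Those with the smallest adjusted p were Thbs4, a thrombospondin (2.44), Tnc, tenascin-C (1.24), the homeobox gene Meox1 (0.81) and Postn, periostin (0.77), with limma adjusted p from 1.27e-06 to 2.22e-05. In the same hearts, 15 of 15 macrophage markers were called higher. Of 10 epicardial markers, 6 were under 1 TPM in every library, and the 2 tested went opposite ways: Aldh1a2, a retinoic acid synthesis enzyme gene, was called higher (0.99, limma adjusted p = 1.82e-06) and Wt1 lower (-1.19, limma adjusted p = 1.32e-05).

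**Figure D5:**
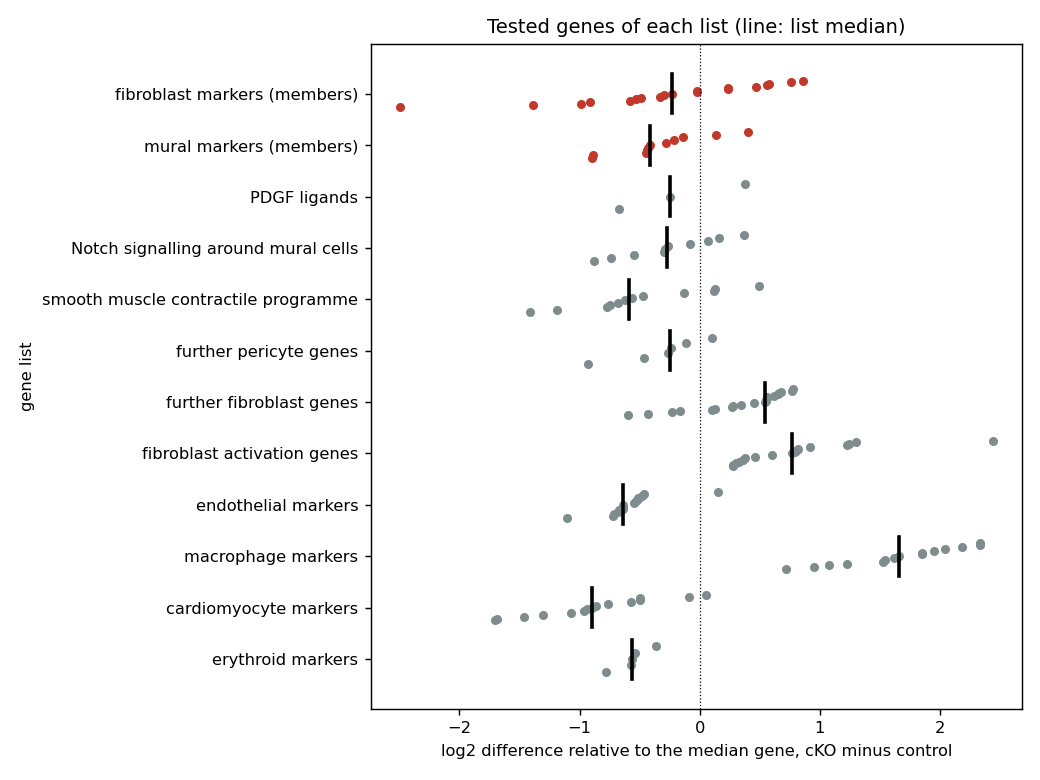
Log2 difference relative to the median gene for every tested gene of each list with at least 3 tested genes, 1 point per gene, black line at the list median. Fibroblast members (red, top) run from -2.49 to 0.86, wider than the further fibroblast genes, and mural members (red, next row) have a median of -0.41.

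Around the mural cells, the PDGF ligands differed among themselves. Pdgfa, a ligand of PDGFRA, was called higher (0.38, limma adjusted p = 0.00906), whereas Pdgfb, the endothelial signal to pericytes (-0.25, limma adjusted p = 0.0322), and Pdgfd (-0.67, limma adjusted p = 1.46e-04) were called lower. Pdgfb was called higher as deposited (0.45). Of 10 Notch pathway genes, 1 was called higher, 4 lower and 5 were not called (median -0.27; 7 higher and 3 not called as deposited). Heyl, a Notch target of mural cells, was the 1 called higher (0.37). The targets Hey1 (-0.88) and Nrarp (-0.74) and the endothelial ligand gene Dll4 (-0.29, but 0.35 as deposited, where it was called higher) were called lower, beside 14 of 15 endothelial markers called lower. Of 12 further contractile genes tested, 1 was called higher, 8 lower and 3 were not called (median -0.59; 4 higher and 2 lower as deposited). The smallest adjusted p belonged to Synpo2 (-1.19), Smtn (-1.41), Tpm2 (-0.75) and the serum response factor gene Srf (-0.56), with limma adjusted p from 5.84e-07 to 1.73e-04. Several of this list, Tpm1 and Srf among them, are also used by heart muscle cells, whose markers were called lower in 13 of 15 genes. The 1 called higher was Acta2, smooth muscle actin (0.49, limma adjusted p = 0.00805), named after its value was seen. Of 6 further pericyte genes, 2 were called lower, Vtn, vitronectin (-0.93), and Cox4i2, a subunit of cytochrome oxidase (-0.46, limma adjusted p = 8.26e-05 and 0.0254), and the other 4 were not called (3 higher and 3 not called as deposited).

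Under all 5 scalings run (the median gene, as deposited, the upper quartile, TPM closed over nuclear genes, and TPM closed without the 100 most abundant genes) 8 members were called higher: Pdgfra, Tcf21, Tbx18, Dcn, Lum, Gsn, Ddr2 and Cspg4. In the same 5, 3 were called lower: Clec3b, Pi16 and Scara5. The median log2 difference of all tested genes in these scalings was, in the order listed, 0.01, 0.63, 0.02, 0.28 and 0.07. The other scalings thus place the median gene higher in cKO than the first does, so keeping a higher call under them tests it little. How many of all tested genes keep their call under all 5 was not counted. Across these scalings Pdgfra ranged from 0.76 to 1.44, Tcf21 from 0.86 to 1.56, Clec3b from -2.63 to -1.84, Pi16 from -1.45 to -0.74 and Scara5 from -1.26 to -0.53. The summed level of the fibroblast members overlapped between groups (861 to 1080.4 in cKO and 763 to 949 in control hearts in scaled TPM), as did that of the mural members (379 to 527 in cKO and 493 to 574 in control hearts). Such sums follow the most abundant genes and do not speak for each list. Dcn alone held 387 to 522 in cKO hearts. In the mural sum only cKO replicate 7, where Myl9 had 233, reached the control range.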

How the data were processed

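Libraries of 10 hearts were made with a Vazyme VAHTS kit from RNA extracted on RNeasy columns, per the labels' protocols. The authors deposited TPM, with each library summing to 1000000. The submitters' processing notes name build mm10 and, with no role or order, HTSeq 0.11.2, DESeq2 1.22.2, STAR 2.7.1, Trimmomatic 0.32, Picard 1.96, FastQC 0.11.7 and bcl2fastq. The sources used here do not give the annotation release, gene lengths or strand setting. Read depth is unknown, so no counting interval was given.

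Groups and replicate numbers came from the sample titles. TPM was divided by a median-of-ratios factor per library, computed from 16393 genes above 0 in all libraries, and log2(value + 1) was fitted with limma 3.58.1 in R 4.3.3 (2 groups, eBayes with trend, two-sided, Benjamini-Hochberg over 13282 genes with at least 1 TPM in at least 5 libraries). The same fit was made on TPM as deposited. Fold changes on these log2 scales understate changes of low genes. The labels do not say how the animals were drawn from litters, and p-values measure only the spread between these samples, which may be technical in part.

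Members and gene lists were chosen with earlier results of these data known. Every member is reported. Values in every library are given for 6 lineage genes, members called lower, and the 6 of each sublist with the largest differences, and a few others chosen after their values were seen (Lum, Cspg4, Myl9, Efemp1 and Penk). Of other lists up to 4 genes with the smallest adjusted p are named, apart from those said to be named later.

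Gene IDs of the table matched GENCODE M21 (GRCm38, also called mm10) for 51460 of 55858 genes without the version and 35 with it, and coordinates are from M21. Exons of 10 members overlap another annotated gene on the other strand. Sequences before gene starts are from RefSeq on GRCm38.p6. Alternatives varied the pseudocount, filter, scaling, variance model, weights, a Ddx3y covariate for sex and the libraries used.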

Additional observations from a re-analysis of the deposited data

Results flagged for a closer look

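In 66 groups of 5 values (each member and Chmp4b in each group, as scaled TPM), 2 held a value whose gap to its nearest neighbour exceeded 0.71 of the group's range, Dixon's 95% limit. Chance gives about 1 in 20 such groups. Pdgfra in cKO replicate 6 was 14.6, against 15.8 in each of the other 4 cKO hearts after rounding, and was still above all control hearts. Rgs5 in control replicate 13 was 169.7, against 196 to 206 in the other controls, and was above all cKO hearts.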

How the results depend on the processing

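No paired analysis was made, because the labels give no litter and do not say that a shared replicate number marks a pair. TPM closed over nuclear genes, used in place of the median-gene factor (median log2 difference 0.28), gave 6064 higher and 1373 lower genes in all. With it 9 fibroblast members were higher and 6 lower, and 2 mural members higher and 2 lower. These values are the alternative to both scales. TPM closed without the 100 most abundant genes gave 3245 higher and 2287 lower genes, 7 fibroblast members higher and 8 lower, and 1 mural member higher and 5 lower. As deposited the counts were 10160 and 460 for all genes, 12 and 3 for fibroblast and 6 and 0 for mural members, against 2763 and 2766, 7 and 10, and 1 and 6 relative to the median gene. Without the libraries with Xist, 1642 genes were higher and 1819 lower relative to the median gene, with 4 fibroblast and 0 mural members higher. As deposited, 8942 genes were then higher and 308 lower, and 3 mural members were higher. A filter at 5 TPM left 293 lower genes as deposited, from fewer genes tested. The cause of the other shifts was not tested.

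Members whose direction turned as deposited were Dpt (0.51), Rgs5 (0.29), Htra3 (0.15), Fbln2 (0.70), Mfap5 (0.14), Kcnj8 (0.40), Cnn1 (0.31), Thy1 (0.36), Mcam (0.32), Tagln (0.29), Higd1b (0.25), Fbln1 (0.19), Smoc2 (0.41), Notch3 (0.53) and Pdgfrb (0.69), from values below 0 relative to the median gene. Closed over nuclear genes, Dpt (0.07), Fbln2 (0.27), Cnn1 (0.00), Notch3 (0.13) and Pdgfrb (0.26) turned, and without the 100 most abundant genes Fbln2 (0.04) and Pdgfrb (0.04). With the Ddx3y covariate Myl9 (-0.04) and Pdgfrb (0.00) turned, without the libraries with Xist Myl9 (-0.09) and Pdgfrb (0.01), and without cKO replicate 7 Myl9 (-0.01). Of the 8 members called higher 4, and of the 16 called lower 12, kept their call relative to the median gene. This covers every setting other than scaling in which they were tested, and Scara5 was not tested with the filter at 5 TPM. How many of all called genes keep their call under these settings was not counted. Leaving out each library gave 5 to 6 fibroblast members higher and 7 to 10 lower, and 1 mural member higher and 5 to 7 lower, relative to the median gene. Of all tested genes, 2500 to 2698 were higher and 2509 to 2770 lower in these fits. As deposited, leaving out each library gave 12 and 3 fibroblast members, 5 to 7 mural members higher and 0 to 1 lower (Myh11 without cKO replicate 5, Abcc9 without control replicate 13), and a Chmp4b difference of -12.0 to -6.48 TPM. Of all tested genes, 9763 to 10171 were then higher and 395 to 516 lower.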
